A study of Arabidopsis thaliana with 8 samples.

Results

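Brassinosteroids are plant steroid hormones that are sensed at the cell surface. The receptor kinase BRI1 binds the hormone with its outer domain and pairs with a co-receptor kinase of the SERK family, chiefly BAK1, while the inhibitor BKI1 keeps the resting receptor from pairing. The active complex signals through cytoplasmic kinases and phosphatases that switch off the kinase BIN2, so that the transcription factors BZR1 and BES1 act in the nucleus. The genes described here are the 4 receptor genes BRI1 (AT4G39400), BRL1 (AT1G55610), BRL2 (AT2G01950) and BRL3 (AT3G13380), the 4 co-receptor genes BAK1 (AT4G33430), SERK1 (AT1G71830), SERK2 (AT1G34210) and SERK4 (AT2G13790), and BKI1 (AT5G42750). They were taken by their locus identifiers. These 9 genes, of 26716 with a probe on the array, were read by 16 probes, and all 9 were among the 22101 genes tested.

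The data are single-colour Agilent arrays of Arabidopsis thaliana seedlings, ecotype Col-0. The first group was bil1-1D, a dominant mutant with an altered BZR1 that is also listed as bzr1-1D. Its 4 samples had 14 days of 1 µM brassinazole, an inhibitor of brassinosteroid synthesis, and then 3 hours of 1 µM brassinolide, the most active brassinosteroid. The second group was wild type, whose 4 samples had the same 14 days of 1 µM brassinazole and then 3 hours of the solvent DMSO. All plants grew on agar at 22 °C in days of 16 light and 8 dark hours. The comparison asks how transcripts differ when both the hormone and the altered factor are present. Genotype and treatment changed together, so neither can be told apart from the other. Whole seedlings were used, so fewer cells of a type and less RNA per cell cannot be told apart either.

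The mutant arrays were dimmer, with a 75th percentile of the processed signal between 3033 and 3821, against 4638 to 6153 on the wild-type arrays. On the mutant arrays 74.5% to 75.8% of spots were well above background, against 79.5% to 80.6% on the wild-type arrays. The mutant arrays lay on 1 slide and the wild-type arrays on another, each with its own scan, and the effects of slide and group cannot be told apart. The scanner software marked 1 mutant array and 2 wild-type arrays for evaluation. No label states that replicates were separate cultures, so the p-values refer to the spread among these samples only, and that spread may be technical. The number of arrays limits the precision. Below, the relative signal is a probe's processed signal as a percent of its array's 75th percentile, and changes are log2 fold changes of the brassinolide-treated mutant over the DMSO-treated wild type ± SE, with p-values from limma adjusted by Benjamini-Hochberg. Signals of different probes are not compared with each other.

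Of the 9 genes, 5 fell, 1 rose and 3 did not pass the test. In all 55.9% of the genes tested were called, 25.7% downward and 30.2% upward, so a call alone does not set these genes apart. With spike-in scaling 4230 of the 22101 genes tested were called, against 12349 here, so a call lost there does not set a gene apart either. Of those calls 44.1% were upward, against 54.1% here. At least 2-fold changes were called for 4 of the 9 genes and for 8.1% of all genes tested. All 4 were falls, which 5.02% of all genes showed at that size, and none was a rise, which 3.08% showed. These were BRI1, BRL1, BRL3 and BKI1, that is, 3 of the 4 receptor genes and the inhibitor gene. Of the 4 co-receptor genes, BAK1 fell by less, SERK1 rose, and SERK2 and SERK4 did not pass. The median change was -1.74 over the receptor genes and 0.09 over the co-receptor genes, beside 0.03 over all genes tested. The groups did not overlap for 6 of the 9 genes, with the mutant lower for 5 and higher for 1. Over the 22072 tested genes with a value on every array, the share without overlap was 52.2%, made up of 24% with the mutant lower and 28.2% with the mutant higher.

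**Figure D1:**
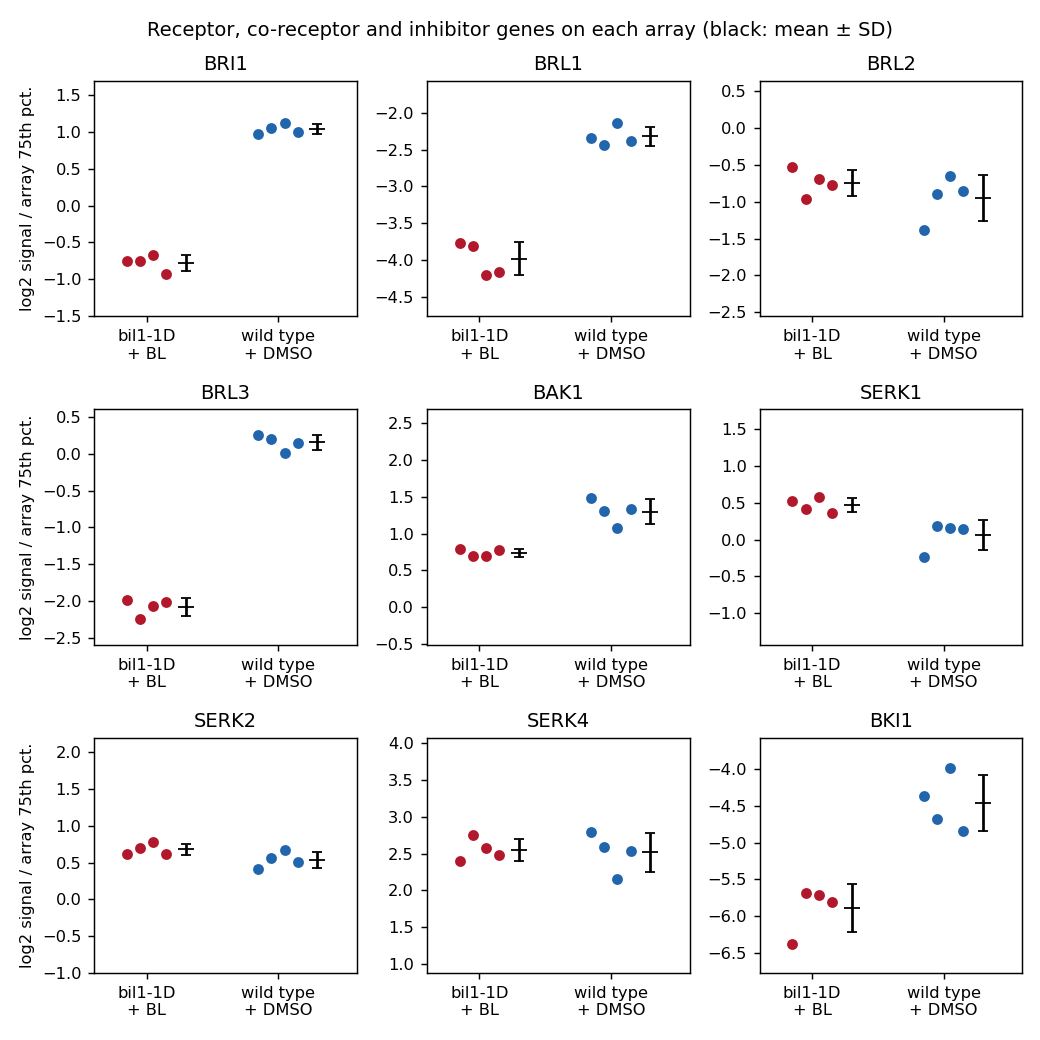
Normalized log2 signal of each gene's main probe (0 is the array's 75th percentile; every panel spans the same range) on the 4 arrays of bil1-1D with brassinolide (BL, red) and the 4 of wild type with DMSO (blue), with the mean ± SD in black. The groups are apart for BRI1, BRL1, BRL3, BAK1, SERK1 and BKI1 and overlap for BRL2, SERK2 and SERK4.

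BRI1, the main brassinosteroid receptor, had a relative signal of 59.2%, 59.5%, 62.8% and 52.3% on the 4 mutant arrays, against 197%, 208%, 218% and 199.6% on the 4 wild-type arrays. The highest mutant array lay far below the lowest wild-type array. The mean was 58.5% ± 4.39 in the mutant and 206% ± 9.31 in the wild type (SD, n = 4 each). The change was -1.82 ± 0.07 (adjusted p = 1.3e-06), a 3.52-fold fall with a 95% interval of -1.97 to -1.66 on the log2 scale. A larger fall was seen for 328 of the 22101 genes tested, or 1.48%.

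BRI1 had 3 further probes, all dim. The brightest of them had 0.605%, 0.423%, 0.563% and 0.485% in the mutant, where it was on no array well above background, and 1.94%, 1.13%, 1.06% and 0.898% in the wild type, where it was so on all 4. Against the bound described under the processing, its signal in the mutant was 2.07-fold lower, but that bound is not a strict limit. This probe entered the test through the wild-type arrays alone and has no measured level in the mutant, so its p-value is not used. Another was well above background on the 4 wild-type arrays alone, at 0.306% to 0.625%, and its groups overlapped. The last was not well above background on any array. The statement about BRI1 therefore rests on the bright probe alone.

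BRL3 and BRL1 encode receptors that bind brassinosteroids like BRI1 and are known for expression in vascular tissue. BRL3 had a relative signal of 25.2%, 21.0%, 23.9% and 24.7% in the mutant, against 119%, 115%, 101% and 111% in the wild type. The mean was 23.7% ± 1.86 in the mutant and 112% ± 7.90 in the wild type (SD, n = 4 each). This was the deepest fall of the 9 genes, with a change of -2.24 ± 0.08 (adjusted p = 9.7e-07), a 4.71-fold fall, which 179 genes (0.810%) exceeded. A further BRL3 probe was on no mutant array well above background, at 0.112% to 0.126%, but was so on each wild-type array, at 0.410% to 0.464%. The bound on its fold fall was only 0.791, so this probe gives no size for a fall and is no separate support for it. BRL1 had 7.35%, 7.14%, 5.44% and 5.61% in the mutant and 19.8%, 18.5%, 22.8% and 19.2% in the wild type on its single probe. Its groups were well apart, and the change was -1.66 ± 0.12 (adjusted p = 2.4e-05), a 3.16-fold fall.

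BRL2, also named VH1, is a relative of BRI1 known for a role in leaf veins and not as a brassinosteroid receptor. It had 69.1%, 51.3%, 61.9% and 58.6% in the mutant, against 38.3%, 53.7%, 63.6% and 55.5% in the wild type. The groups overlapped, and wild-type replicate 1 was the lowest of the 8 arrays. The change of 0.21 ± 0.16 did not pass (adjusted p = 0.301), with an interval of -0.16 to 0.57, which leaves out the changes measured for the other receptor genes.

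The falls of BRI1, BRL1 and BRL3 passed the threshold under all 22 alternatives of scaling, background, filter, probe, test and arrays. These are not independent checks, since BRL1 has a single probe and keeps its values where the probe is changed. The second probes of BRI1 and BRL3 were on no mutant array well above background. The mean over tested probes takes in probes of this kind. Neither setting is therefore separate support for their falls. The change of BRI1 was smallest at -1.23 with its second probe, which has only a bound in the mutant. Their falls are also present without scaling, but the mutant arrays were dimmer as a whole, which lowers unscaled signals in general. SERK2, which did not fall after scaling, was lower without it as well. The unscaled values are therefore no separate support for the falls. The processed signal of BRI1 was 1809 to 2264 on mutant arrays and 10100 to 12128 on wild-type arrays, that of BRL1 was 165 to 281 on mutant and 958 to 1220 on wild-type arrays, and that of BRL3 was 724 to 962 on mutant and 4677 to 7350 on wild-type arrays.

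BAK1 encodes the main co-receptor and also serves immune receptors. Its relative signal was 173%, 162%, 162% and 171% in the mutant, against 279%, 247%, 210.3% and 252% in the wild type. All mutant arrays lay below all wild-type arrays, and the mutant arrays varied less (mean 167% ± 5.66 in the mutant and 247% ± 28.4 in the wild type, SD, n = 4 each). The change was -0.56 ± 0.08 (adjusted p = 8.5e-04), a 1.47-fold fall, and a second BAK1 probe well above background on all 8 arrays gave -0.60. With spike-in scaling the size was kept but the call was lost (-0.58, adjusted p = 0.0711).

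SERK1, which acts in anther development and as a minor brassinosteroid co-receptor, had 144%, 134%, 149% and 129% in the mutant, against 84.9%, 114%, 112% and 110.5% in the wild type. The mutant arrays all lay above the wild-type arrays, among which replicate 1 stood lowest. The change was 0.41 ± 0.10 (adjusted p = 0.0102), a 1.33-fold rise, which was 0.31 (adjusted p = 0.00541) without wild-type replicate 1. The rise appears only after scaling. Before it, the processed signal of SERK1 was 4455 to 5510 on mutant arrays and 5192 to 5901 on wild-type arrays. With spike-in scaling it was 0.38 and not called (adjusted p = 0.180).

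SERK2, the closest relative of SERK1, had 154%, 163%, 171% and 153% in the mutant, against 133%, 147%, 159.8% and 142% in the wild type. The groups overlapped and the change of 0.14 ± 0.07 did not pass (adjusted p = 0.114). It was called upward with median scaling (0.20, adjusted p = 0.0443), with array weights (0.17, adjusted p = 0.0385) and without wild-type replicate 3 (0.18, adjusted p = 0.0387). Its second probe gave -0.16, so the probes differed in sign. Before scaling, the processed signal of SERK2 was lower in the mutant, at 5184 to 5870 against 7413 to 8199 in the wild type.

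SERK4, also named BKK1, acts beside BAK1 in brassinosteroid signalling and in restraining cell death. It had 526%, 675%, 595% and 558% in the mutant, against 692%, 600.4%, 445% and 580.5% in the wild type. The wild-type arrays alone spanned the mutant values, and the change was 0.03 ± 0.14 (adjusted p = 0.849; interval -0.28 to 0.35). A second bright probe had 314%, 424%, 369% and 353% in the mutant and 341%, 279.8%, 237% and 292% in the wild type, a change of 0.35 that passed narrowly (adjusted p = 0.0468). SERK4 lies next to SERK5 in the annotation, and whether probes of these close relatives share signal was not tested.

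BKI1 encodes the membrane-bound inhibitor of BRI1. Its single probe was dim but well above background on all 8 arrays, with 1.20%, 1.95%, 1.90% and 1.79% in the mutant, against 4.86%, 3.92%, 6.34% and 3.49% in the wild type. The groups did not overlap, though each varied more on the log2 scale than those of the receptors. The change was -1.43 ± 0.22 (adjusted p = 9.2e-04), a 2.69-fold fall. The size depends on how background is treated, since normexp on the negative-control spots gave -0.65 (adjusted p = 0.00822). The call was kept under all 22 alternatives, though with a single probe those that change the probe repeat its values.

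**Figure D2:**
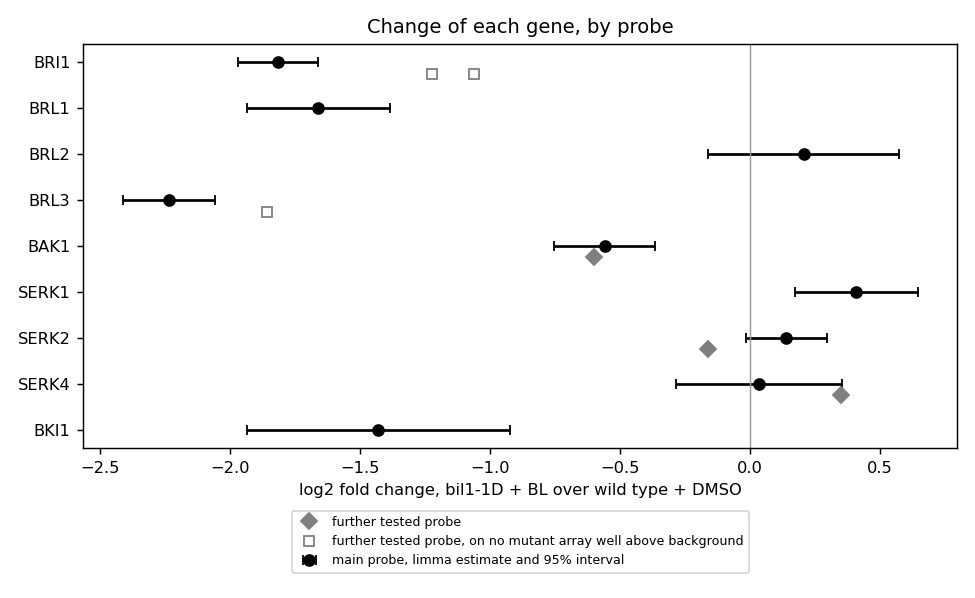
Log2 fold change of bil1-1D with brassinolide over wild type with DMSO for each gene, with limma's 95% interval for the main probe (black) and the differences of further tested probes (grey). Open squares are probes on no mutant array well above background, whose place on the axis is not a measured size. BRI1, BRL1, BRL3 and BKI1 lie below -1, BAK1 at -0.56, and the other co-receptor genes and BRL2 between 0.03 and 0.41.

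Whether these genes changed by unequal amounts was tested on the log2 difference between both genes of a pair within each array, with a two-sided exact permutation test over the 8 arrays for 10 pairs. The smallest p this design allows is 0.0286, which gave 0.0408 after Benjamini-Hochberg adjustment over the 10 pairs. The change of BRI1 differed from that of BAK1 by -1.26 ± 0.14 (SE; adjusted exact p = 0.0408), and the values did not overlap, at -1.71 to -1.37 on mutant arrays and -0.50 to 0.05 on wild-type arrays. The receptor gene thus fell more than its main co-receptor gene. BRI1 and BRL2 differed by -2.02 ± 0.16 (adjusted exact p = 0.0408). BRI1 and BRL1 did not differ past the threshold, with a difference of -0.15 and an interval of -0.46 to 0.16 (adjusted exact p = 0.286). BRL3 fell further than BRL1, by 0.57 ± 0.18 (adjusted exact p = 0.0408), while BRI1 and BRL3 differed by 0.42 ± 0.12, short of the threshold (adjusted exact p = 0.0714). BRI1 and BKI1 differed by -0.39, with an interval of -0.98 to 0.21 (adjusted exact p = 0.190).

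Within the co-receptor family, BAK1 changed unlike each of the others. The difference was -0.97 ± 0.18 against SERK1, -0.70 ± 0.15 against SERK2 and -0.59 ± 0.11 against SERK4, and SERK1 differed from SERK2 by 0.27 ± 0.08 (adjusted exact p = 0.0408 each). Dividing an array by a scaling factor leaves these within-array differences as they are. In all, 7 of the 10 pairs passed. The calls are at the limit of what 8 arrays allow: on leaving out single arrays the 7 differences kept their direction, but each lost its call for at least 3 of the 8 arrays left out, with an adjusted p up to 0.143. The difference of BRL1 and BRL3 lost it for 6 of them, all but wild-type replicates 3 and 4. The second probes of BRI1 and BRL3 have only a bound in the mutant, so with them the differences that involve these genes have no measured size. With second probes the difference of BAK1 was -1.01 from SERK1 and -0.95 from SERK4. Each fell short of the threshold, at an adjusted exact p of 0.0571, the lowest among the pairs there. The difference of BAK1 from SERK2 was smaller with second probes than with the main probes, and it also fell short. SERK1 has a single probe, so in its pair only the probe of BAK1 was changed.

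**Figure D3:**
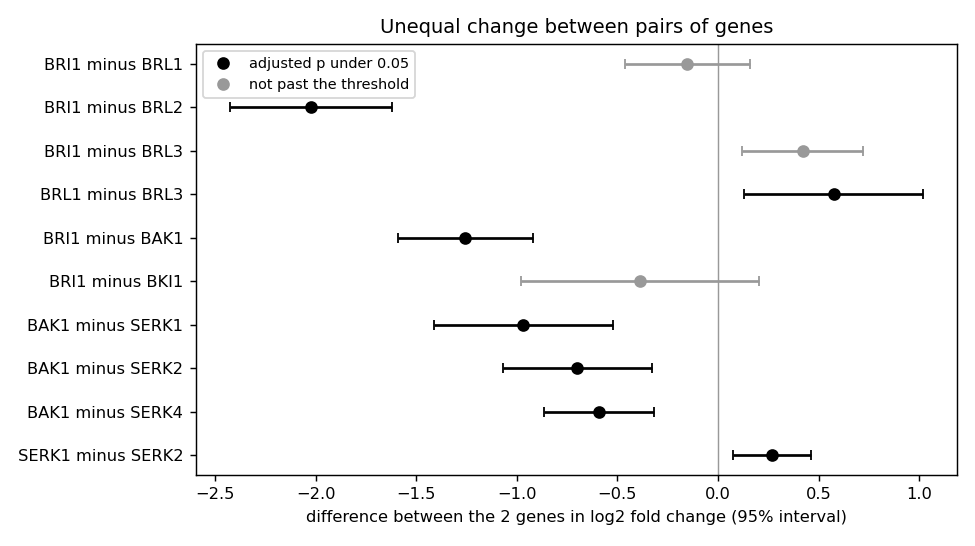
Difference between 2 genes in their log2 fold change, the first gene's minus the second's, with a 95% interval from the spread over the 8 arrays. Black points passed the exact permutation test after adjustment over 10 pairs. BRI1 minus BRL2 at -2.02 and BRI1 minus BAK1 at -1.26 are the largest, and BRI1 minus BRL1 at -0.15 the smallest.

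Genes that work with the receptor complex were taken as lists. Of 11 genes for partners of BAK1, 2 fell, 4 rose and 5 did not pass, none of those called by as much as 2-fold, with a list median of 0.29. SERK5 (-0.38 ± 0.09, adjusted p = 0.00732), the fifth member of the family, and BIK1 (-0.28 ± 0.08, adjusted p = 0.0166), a cytoplasmic kinase of immune signalling, fell. NIK1 (0.82 ± 0.15, adjusted p = 0.00202), a related receptor kinase named for binding a viral protein, BIR1 (0.48 ± 0.11, adjusted p = 0.00729), a BAK1-interacting kinase, and NIK2 (0.33 ± 0.11, adjusted p = 0.0368) rose. NIK2 was no longer called without any 1 of 6 arrays (all mutant arrays and wild-type replicates 2 and 4; adjusted p between 0.0582 and 0.0795). With spike-in scaling 0 of the 11 fell and 1 rose, and SERK5 (adjusted p = 0.224), BIK1 (adjusted p = 0.392), BIR1 (adjusted p = 0.185) and NIK2 (adjusted p = 0.305) were no longer called. Of all 22101 genes tested, 2366 fell and 1864 rose under that setting. BIK1 also lost its call with median scaling (adjusted p = 0.0563) and SERK5 with its second probe (-0.28, adjusted p = 0.0559). Without the 3 marked arrays no gene of this list fell past the threshold, with SERK5 at -0.23 (adjusted p = 0.0783) and BIK1 at -0.22 (adjusted p = 0.180). In this list 54.5% of genes were called, beside 55.9% of all genes.

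Of 14 receptor kinase genes whose products work with SERK co-receptors, 4 fell, 6 rose and 4 did not pass, with a list median of -0.03. The share called was 71.4%, beside 55.9% of all genes. The 3 largest falls were of EFR, which senses bacterial elongation factor (-1.74 ± 0.13, adjusted p = 2.9e-05), of PEPR2, which senses Pep danger peptides (-1.11 ± 0.22, adjusted p = 0.00319), and of FLS2, the flagellin receptor (-0.60 ± 0.08, adjusted p = 4.7e-04). The second probe of EFR gave only -0.21 (adjusted p = 0.170), so its size is uncertain. The 3 largest rises were of ERECTA, listed as ER, which shapes organs and stomatal pattern (0.80 ± 0.14, adjusted p = 0.00176), of HAE, which acts in organ abscission (0.60 ± 0.15, adjusted p = 0.0109), and of PXY, which orients divisions in vascular tissue (0.58 ± 0.12, adjusted p = 0.00357). With spike-in scaling 1 of the 14 rose, with HAE (adjusted p = 0.0675) and PXY (adjusted p = 0.0536) no longer called, and with normexp 3 rose. Of all 22101 genes tested, 1864 rose with spike-in scaling and 3651 with that normexp, against 6678 in the main fit.

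Among 13 genes for receptor folding and turnover there were 3 falls and 6 rises, none of them 2-fold, and 4 genes that did not pass, with a median of 0.03. The share called was 69.2%, beside 55.9% of all genes. The pair of ubiquitin ligase genes PUB12 and PUB13, whose products act on FLS2 and BRI1, went opposite ways. PUB13 fell (-0.64 ± 0.07, adjusted p = 1.3e-04), though its second probe gave -0.17 (adjusted p = 0.130), and PUB12 rose (0.52 ± 0.06, adjusted p = 3.1e-04) but not with normexp (0.27, adjusted p = 0.302). BRS1, a secreted carboxypeptidase found as a suppressor of a weak BRI1 mutant, rose (0.82 ± 0.11, adjusted p = 4.7e-04), as did EBS1, a glucosyltransferase that retains misfolded BRI1 (0.44 ± 0.06, adjusted p = 5.6e-04). EBS4 (-0.32 ± 0.06, adjusted p = 0.00262), an enzyme of N-glycan assembly, and HRD3A (-0.13 ± 0.04, adjusted p = 0.030), a part of the degradation machinery of the endoplasmic reticulum, fell by small amounts. HRD3A was no longer called without any 1 of 6 arrays (all mutant arrays and wild-type replicates 1 and 2; adjusted p between 0.0539 and 0.0742). Its call was also lost with quantile scaling (-0.090, adjusted p = 0.112), median scaling (-0.073, adjusted p = 0.230) and the authors' value table (-0.091, adjusted p = 0.118). Under the spike-in scaling this list had 1 fall and 1 rise, beside 2366 falls and 1864 rises among all 22101 genes tested.

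Of 22 genes for the steps inside the cell, 20 were tested, and CDG1 and BSU1, named only for that reason, were not. The 20 held 4 falls and 8 rises, with 8 genes short of the threshold and a median of 0.09. The share called was 60%, beside 55.9% of all genes. BSK6, one of the kinases next to the receptor, rose by 1.18 ± 0.07 (adjusted p = 9.6e-06), and the kinase gene GSK1, also named BIL2, a close relative of BIN2, fell by 0.36 on the log2 scale (adjusted p = 2.6e-04). Among the transcription factor genes of this list, BEH2 (-3.76, adjusted p = 6.8e-09) and BEH1 (-1.23, adjusted p = 6.8e-05) fell and BES1 (1.26, adjusted p = 2.5e-05) and BZR1 (0.57, adjusted p = 7.0e-05) rose. With spike-in scaling 2 fell and 2 rose, beside 2366 falls and 1864 rises among all 22101 genes tested.

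**Figure D4:**
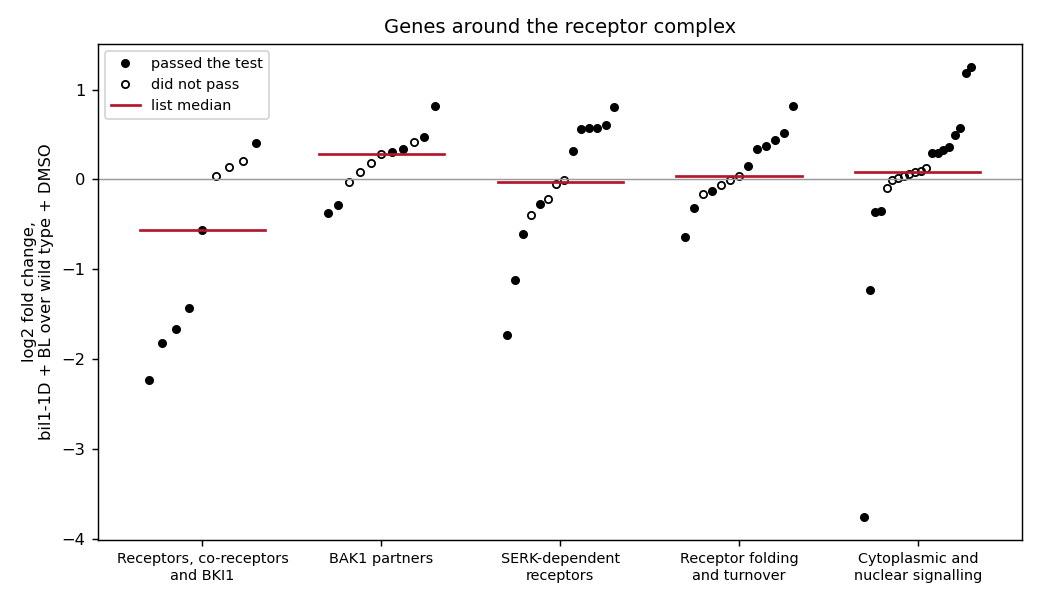
Log2 fold change of bil1-1D with brassinolide over wild type with DMSO for the 9 genes and for each tested gene of 4 lists, with the list median in red. Filled points passed the test. The median of the 9 genes is -0.56, and those of the lists lie between -0.03 and 0.29.

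The genes whose pattern over the 8 arrays was nearest to that of BRI1 were sought by the root mean square difference of log2 signals, each gene centred on its own mean, among 20967 other genes well above background on every array. The nearest were ELI3-1 (0.0982), AT3G06270 (0.1005), RID2 (0.104), AT1G68680 (0.107) and AT1G26558 (0.107), all with changes between -1.73 and -1.67. This measure takes in the difference between the groups, so changes near the -1.82 of BRI1 were fixed by the choice. For the same reason the ranks of the members are no result separate from their changes. The second tested probe of AT1G26558 gave -0.29 (adjusted p = 0.0320), so the size of its change is uncertain. Among the members, BRL1 was the 54th nearest at 0.174, BRL3 the 153rd at 0.258 and BKI1 the 330th at 0.354. BAK1 was the 1918th, at 0.650.

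Some markers of tissues differed between the groups. Over all genes tested 55.9% were called, 25.7% downward and 30.2% upward, so these counts alone do not set the markers apart. Of 5 root markers, 3 fell and none rose, and their summed relative signal was 2555% to 2914% on mutant arrays, against 3211% to 3925% on wild-type arrays. Most of that sum was PYK10, at 2402% to 2748% on mutant arrays and 3060% to 3750% on wild-type arrays. PIN2 (-0.92) and PLT1 (-1.03) fell too, while SHR (0.18) and SCR (0.10) did not pass. All 3 epidermis markers rose, with sums of 2220% to 2369% on mutant arrays and 1507% to 1597% on wild-type arrays. Of 6 vascular markers, 2 fell, 2 rose and 2 did not pass, and the sums overlapped at 631% to 687% on mutant arrays and 618% to 837% on wild-type arrays. Of 4 leaf markers, 2 fell and 1 rose, with overlapping sums of 23945% to 26394% on mutant arrays and 24266% to 29524% on wild-type arrays. Every marker was well above background on all 8 arrays, and the sums are compared only between groups. The part of tissue makeup in the changes of the receptor genes was not tested.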

How the data were processed

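RNA of 8 seedling samples was hybridised to 1 single-colour array each. Per the file headers, the authors deposited spot intensities on a linear scale from Feature Extraction 11.5.1.1 (the submitters' processing notes name 9.1.3.1), background-subtracted and detrended, and they were not scaled between arrays. The authors' deposited value table appears to hold natural log values (its slope on the logged processed signal was 0.975 to 1.02), with identical sorted values in every column, as quantile normalization gives; its centring is unknown, and it served as an alternative.

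The 8 arrays held 93 spots flagged as outliers, which were dropped, none of them on a probe of the 9 genes. Probes were assigned to loci through their accessions in the RefSeq gene table (36163 of 43603 matched 1 locus). Control probes aside, the 75th percentile of each array's processed signal served as its scale, and signals were divided by it, floored at 0.001 of it and put on the log2 scale. A probe entered the test if some group had it well above background on every array, and the tested probe with the highest mean stood for its gene. The comparison used lmFit and eBayes of limma 3.58.1 (R 4.3.3) without covariates, Benjamini-Hochberg adjusted over 22101 genes, with a threshold of 0.05. Pairs of genes were compared by an exact permutation test over the arrays. In simulated data made from the spread of these arrays over 22072 genes, changes of 0.5, 1 and 2 on the log2 scale were given to 67, 67 and 66 genes. They were recovered in 65.7%, 89.6% and 97.0% of cases, with 13 false calls. Far fewer genes were changed there than were called in these data, so the rates need not hold for the comparison above.

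A probe that was on no array of a group well above background has only a bound there: each dim array was given the probe's own signal or the lowest signal well above background, whichever was higher, and the mean of these was set against the bright group's mean. A dim probe's own signal can exceed that lowest signal, so the bound is not a strict detection limit.

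The members, lists and tests were chosen with earlier results of these data known. The text names the 9 members, of each list the 3 largest rises and 3 largest falls past the threshold, and the 5 genes nearest to BRI1 in pattern among those well above background on all 8 arrays; genes named beyond these are said to be so. The alternatives were quantile, median and spike-in scaling (the 5 brightest spike-in probes), normexp with an offset of 50 on local background or on 153 negative-control spots, the authors' value table, other filters, other probes, eBayes with trend, array weights, the replicate block, and leaving out arrays. Normexp used the median spot signal. Other steps ran in Python 3.11.15 (pandas 2.3.3; numpy 2.4.6; exact tests with scipy 1.17.1; figures with matplotlib 3.10.9).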

Additional observations from a re-analysis of the deposited data

Results flagged for a closer look

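Among 94 sets of 4 arrays (each gene named here and each pair difference, in each group), 3 held an array whose gap to its nearest neighbour took up nearly the whole range of the set. Chance alone gives about 1 in 20. SERK1 stood at -0.24 on wild-type replicate 1, where the next lowest wild-type array had 0.14. FLS2 stood at 1.41 on wild-type replicate 4, above the next at 1.36, within a narrow set. HRD3A stood at -1.87 on mutant replicate 4, below the next at -1.83, again in a narrow set.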

How the results depend on the processing

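BRI1, BRL1, BRL3 and BKI1 kept direction and call under all 22 alternatives, and BAK1 and SERK1 under 21. Genes with a single probe (BRL1, SERK1 and BKI1) have the same values in the alternatives that change the probe. For BRI1 and BRL3 those alternatives take in probes that were on no mutant array well above background. They are therefore no separate support for the falls of these genes. With spike-in scaling BAK1 (-0.58) and SERK1 (0.38) lost their calls, so 0 members rose, 0 BAK1 partners fell and 1 rose, 1 SERK-dependent receptor rose, 1 folding and turnover gene fell and 1 rose, and 2 genes of the inner steps fell and 2 rose; its fit called 4230 genes in all (1864 up, 2366 down), against 12349 (6678 up, 5671 down), and normexp called 7258. Under normexp the all-gene median shifted by -0.14, with 3 rising SERK-dependent receptors. In its negative-control form BRI1 differed past the threshold from BRL1 (-0.38) and BKI1 (-1.18). With median scaling SERK2 was called (0.20), as with array weights (0.17), giving 2 rising members in each; with median scaling 1 BAK1 partner fell, and 0 did without the marked arrays. With the mean of probes BRI1 and BRL3 differed (0.68) and BRL1 and BRL3 did not pass (0.38). With second probes SERK4 rose (0.35), giving 2 rising members, 1 BAK1 partner fell, and these pairs lost their calls: BRI1 and BRL2 (-1.43), BRL1 and BRL3 (0.20), BRI1 and BAK1 (-0.62), BAK1 and SERK1 (-1.01), BAK1 and SERK2 (-0.44), BAK1 and SERK4 (-0.95), SERK1 and SERK2 (0.57). The further tested probes of BRI1 and BRL3 have only a bound in the mutant. Pair values of these genes from second probes or from the mean of probes are therefore not measured sizes. At an unadjusted limma p under 0.05, 0 members rose and 0 BAK1 partners fell with spike-in scaling, and 1 BAK1 partner fell without the marked arrays. The cause of these changes was not tested.

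Leaving out single arrays gave 1 to 2 rising members and SERK2 at 0.10 to 0.18. Pair differences ranged over -0.26 to -0.0896 (BRI1 and BRL1), -2.11 to -1.90 (BRI1 and BRL2), 0.46 to 0.68 (BRL1 and BRL3), -1.34 to -1.15 (BRI1 and BAK1), -1.08 to -0.81 (BAK1 and SERK1), -0.82 to -0.60 (BAK1 and SERK2), -0.66 to -0.51 (BAK1 and SERK4) and 0.21 to 0.31 (SERK1 and SERK2). BRI1 and BRL1 passed without mutant replicate 3 (-0.26, adjusted exact p = 0.0476).

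Samples of the same replicate number did not clearly deviate together (correlations -0.28 to 0.17), and 1 of the 4 mutant samples correlated best with its own number. With so few arrays this cannot show whether same-numbered samples were handled together. The replicate block left 11337 genes called; BRI1 kept its call (-1.82, adjusted p = 2.2e-04) and HRD3A lost it (-0.13, adjusted p = 0.0606). A slide block could not be fitted, since each slide holds 1 group. The pair test has no model, so eBayes options, weights and the block were not run for it, and without the marked arrays its values have no test. Dim probes limit what can be said of BKI1 and of the further probes of BRI1 and BRL3.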
